A study of Mus musculus with 24 samples.

Results

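The core circadian clock genes were followed in the liver of single mice. Of 10 listed genes (Arntl, Npas2, Clock, Per1, Per2, Per3, Cry1, Nr1d1, Nr1d2 and Dbp), 9 were measured by a probe set that carried that gene symbol alone, and each of the 9 had 1 such probe set among the 41345 on the array. The only probe set with the symbol of Per2 carried another symbol as well, so no value is given for Per2. Liver RNA of male C57BL/6J mice had been hybridised to Affymetrix arrays (GeneChip Mouse Gene 2.0 ST), with a separate array for each of 4 mice in each of 6 groups. The groups were HFD-EPA/DHA, HFD-corn oil and control for 12 weeks, in mice aged 10 weeks at the start, and HFD-EPA/DHA, HFD-corn oil and control for 8 weeks, in mice aged 9 weeks at the start. HFD-EPA/DHA was a high fat diet enriched in the marine fatty acids eicosapentaenoic and docosahexaenoic acid, and HFD-corn oil was a high fat diet based on corn oil. Both high fat diets also contained added cholesterol and more sucrose than the control diet, so a comparison with control covers more than fat. The 12- and 8-week mice came from separate studies, and time on diet, study and age at the start cannot be told apart. The methods also give isoflurane anesthesia for a body scan on the day of killing at 12 weeks, and name none at 8 weeks. That step cannot be told apart from the study either, and its part in the values was not tested. Per the methods, the 4 mice of a group had been picked by body weight and plasma lipids, the mice shared cages, food was withdrawn early in the morning, and the mice were killed later that morning on consecutive days. The hour and day of killing of each mouse are not given in the sources used here. A difference in hour between the studies can therefore not be told apart from the study either. Per the methods, mice were taken at random and in alternation from a pair of diet groups each day. No day is thus described as covering all 3 diets, and a comparison of diets may also hold a difference between days. The study dropped the array of HFD-corn oil 8 weeks replicate 3, and the tests below likewise ran on the other 23 arrays, 3 of them from that group. Values are log2 signals, in which a difference of 1 is a doubling.

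The clock of liver cells is a transcriptional feedback loop. ARNTL (also named BMAL1) pairs with CLOCK or its relative NPAS2 and switches on the Per, Cry, Nr1d and Dbp genes through E-boxes. PER and CRY proteins then repress that pair, NR1D1 and NR1D2 (REV-ERBα and β) repress Arntl, Npas2, Clock and Cry1, and DBP acts on D-boxes of its own targets. Arntl and its relatives therefore peak at about the opposite phase of the day from Nr1d1, Dbp and the Per genes, and in liver the loop drives daily rhythms of many metabolic genes.

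The elements of this loop are shown first. RefSeq promoter windows (build GRCm38.p6) were found for all 9 measured genes, 13 windows in total, and the 250 bases before each start were searched on both strands for the E-box CACGTG, the E′-box CACGTT, the D-box TTATGTAA and AGGTCA, the half-site bound by the ROR and REV-ERB receptors. No letters of these motifs overlapped in the matches found. In the lines below, read 5′ to 3′ on the strand of the gene, capitals mark the matches.
Per3, 2 D-boxes, chr4:151044796-151044890, minus strand: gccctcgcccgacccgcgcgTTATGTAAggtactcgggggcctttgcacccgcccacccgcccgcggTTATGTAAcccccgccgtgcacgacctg
Cry1, E′-box and E-box, chr10:85185089-85185153, minus strand: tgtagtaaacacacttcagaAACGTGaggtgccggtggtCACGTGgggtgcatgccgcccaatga
Per1, E-box and half-site, chr11:69098763-69098837, plus strand: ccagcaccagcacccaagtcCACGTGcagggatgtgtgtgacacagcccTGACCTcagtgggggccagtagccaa
Nr1d1, E′-box, chr11:98775380-98775425, minus strand: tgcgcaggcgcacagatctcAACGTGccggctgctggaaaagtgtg
Nr1d2, half-site, chr14:18239158-18239203, minus strand: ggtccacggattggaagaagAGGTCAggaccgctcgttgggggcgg

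The D-boxes of Per3 began 205 and 158 bases before the start, and 0.819% of 32851 promoter windows of the same length held a D-box. The E-box, E′-box and half-site were in 6.02%, 3.85% and 14% of all windows. One of the 3 windows of Clock held a half-site, and the windows of Arntl, Npas2 and Dbp held no match. The matches did not sort the genes into the opposite sides described below. Cry1 and Per1 both held an E-box, and half-sites were found for Clock, Per1 and Nr1d2. A match is a run of letters and not a measured binding site, and no match says only that these letters are not in this window.

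Clock genes were among the transcripts that differed most between mice on the same diet. After removal of the 6 group means, the standard deviation (SD) over mice was 0.91 for Dbp, 0.78 for Npas2, 0.77 for Arntl, 0.65 for Per3, 0.61 for Nr1d1 and 0.53 for Per1, against a median of 0.156 over all probe sets. Counted from the largest SD, Dbp stood at rank 27, Npas2 at 45, Arntl at 48, Per3 at 84, Nr1d1 at 104 and Per1 at 163 of 41345. Nr1d2 (SD 0.34, rank 1080), Cry1 (0.30, rank 1725) and Clock (0.23, rank 5430) varied less. Between the highest and the lowest of the 23 mice, Dbp differed 16-fold, Arntl 8.97-fold, Npas2 8.69-fold, Per3 7.62-fold and Nr1d1 6.49-fold, and Clock 2.03-fold. The lowest values of Dbp (6.98), Per3 (7.10), Npas2 (7.16) and Cry1 (7.22) lay near the array medians, which ran from 7.14 to 7.21. The part of signal level in the spreads and fold sizes was not tested. These ranks are a description and were not tested.

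Arntl, the obligate partner in the activating pair, measured 9.34, 9.81, 9.89 and 10.17 in HFD-EPA/DHA mice, 9.59, 8.70, 9.70 and 10.25 in HFD-corn oil mice and 10.05, 10.67, 10.53 and 10.19 in control mice at 12 weeks. At 8 weeks it measured 10.02, 10.69, 7.53 and 9.40 in HFD-EPA/DHA mice, 8.41, 7.69 and 9.52 in HFD-corn oil mice and 8.15, 7.77, 7.98 and 9.08 in control mice. The control groups of 12 and 8 weeks did not overlap, whereas HFD-EPA/DHA at 8 weeks held both the highest (10.69) and the lowest (7.53) mouse of all. Npas2, which can take the place of CLOCK, measured 8.57, 9.22, 9.21 and 9.19 in HFD-EPA/DHA mice, 8.67, 7.69, 8.38 and 9.74 in HFD-corn oil mice and 8.52, 10.16, 10.04 and 9.11 in control mice at 12 weeks. At 8 weeks Npas2 measured 9.40, 10.28, 7.28 and 8.37 in HFD-EPA/DHA mice, 7.97, 7.37 and 8.70 in HFD-corn oil mice and 7.16, 7.42, 7.16 and 7.75 in control mice. Again the 12-week control mice lay above all 8-week control mice, and replicate 2 of HFD-EPA/DHA at 8 weeks was the highest of the 23. Clock, the other partner of ARNTL, ranged from 11.06 to 11.51 on HFD-EPA/DHA, from 10.82 to 11.30 on HFD-corn oil and from 11.04 to 11.34 in control mice at 12 weeks, and from 10.76 to 11.41, 10.49 to 11.08 and 10.54 to 11.03 in the same diets at 8 weeks.

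**Figure D1:**
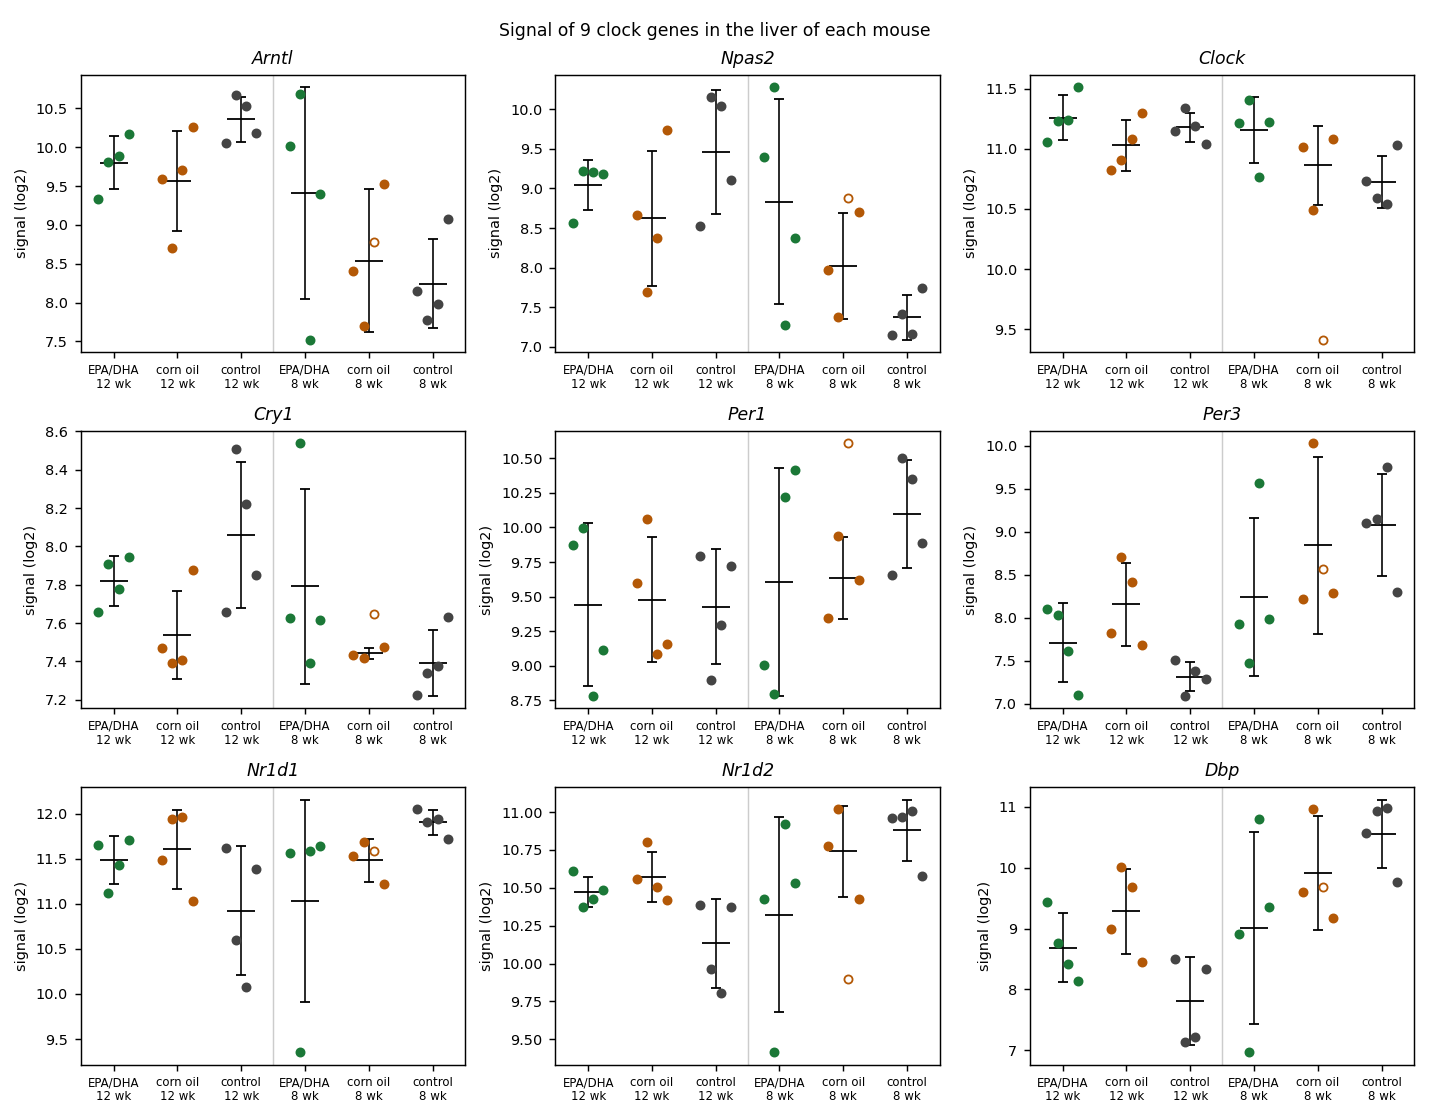
Signal of each clock gene (log2, y axis) in every mouse, for the 6 diet and time groups (x axis). Points are mice, with replicates 1 to 4 drawn left to right, bars are the group mean and SD, and the open point is the array left out of the tests. Points of HFD-EPA/DHA at 8 weeks spread over 3.82 log2 units for Dbp, and 12-week control mice lie apart from 8-week control mice for all genes but Per1.

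Among the repressors, Cry1, which acts with the PER proteins, ranged from 7.66 to 7.94 on HFD-EPA/DHA, from 7.39 to 7.88 on HFD-corn oil and from 7.66 to 8.51 in control mice at 12 weeks. At 8 weeks the ranges of Cry1 were 7.39 to 8.54, 7.42 to 7.47 and 7.22 to 7.63. Although a repressor, Cry1 stood on the side of Arntl in these livers, with replicate 2 of HFD-EPA/DHA at 8 weeks (8.54) and replicate 2 of the 12-week control mice (8.51) at the top. Per1 ranged from 8.78 to 10.00 on HFD-EPA/DHA, from 9.09 to 10.06 on HFD-corn oil and from 8.90 to 9.80 in control mice at 12 weeks. Its ranges at 8 weeks were 8.80 to 10.41, 9.35 to 9.94 and 9.66 to 10.50, and the groups overlapped throughout.

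Per3, the period gene with the paired D-boxes, measured 8.10, 8.03, 7.61 and 7.11 in HFD-EPA/DHA mice, 7.83, 8.70, 8.42 and 7.68 in HFD-corn oil mice and 7.51, 7.10, 7.38 and 7.29 in control mice at 12 weeks. At 8 weeks it measured 7.93, 7.47, 9.57 and 7.99 in HFD-EPA/DHA mice, 8.21, 10.03 and 8.28 in HFD-corn oil mice and 9.10, 9.15, 9.75 and 8.30 in control mice. Every 12-week control mouse lay below every 12-week HFD-corn oil mouse and below every 8-week control mouse. Nr1d1, the main repressor of Arntl, measured 11.66, 11.13, 11.43 and 11.71 in HFD-EPA/DHA mice, 11.49, 11.94, 11.96 and 11.03 in HFD-corn oil mice and 11.63, 10.60, 10.07 and 11.39 in control mice at 12 weeks. At 8 weeks Nr1d1 measured 11.56, 9.36, 11.58 and 11.65 in HFD-EPA/DHA mice, 11.54, 11.69 and 11.23 in HFD-corn oil mice and 12.06, 11.91, 11.95 and 11.72 in control mice. At 8 weeks all mice on either high fat diet lay below all control mice, and replicate 2 of HFD-EPA/DHA (9.36) was the lowest of the 23.

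Nr1d2, the close relative of Nr1d1, ranged from 10.37 to 10.61 on HFD-EPA/DHA, from 10.42 to 10.80 on HFD-corn oil and from 9.80 to 10.39 in control mice at 12 weeks. Its ranges at 8 weeks were 9.42 to 10.92, 10.42 to 11.02 and 10.58 to 11.01. The 12-week control mice were below all 12-week HFD-corn oil mice and all 8-week control mice. Dbp, an output factor of the clock that binds D-boxes, measured 9.44, 8.76, 8.42 and 8.14 in HFD-EPA/DHA mice, 8.99, 10.02, 9.67 and 8.46 in HFD-corn oil mice and 8.51, 7.14, 7.23 and 8.34 in control mice at 12 weeks. At 8 weeks Dbp measured 8.91, 6.98, 10.79 and 9.35 in HFD-EPA/DHA mice, 9.61, 10.96 and 9.18 in HFD-corn oil mice and 10.57, 10.92, 10.98 and 9.77 in control mice. The lowest Dbp of all 23 mice, 6.98, and a value of 10.79 within the range of the 8-week control mice were found in replicates 2 and 3 of the same diet group.

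When the 6 group means were ordered, Arntl and Npas2 were highest in 12-week control mice and lowest in 8-week control mice, and Cry1 had the same ends. Per1, Per3, Nr1d1, Nr1d2 and Dbp were highest in 8-week control mice and lowest in 12-week control mice. Clock was highest on HFD-EPA/DHA at 12 weeks (11.26 ± 0.19, SD, n = 4) and lowest in 8-week control mice (10.72 ± 0.22, n = 4). In this order every pair of neighbouring groups overlapped in single mice, for each of the 9 genes. With limma's moderated F test over all 6 groups, 7 of the 9 genes had an unadjusted p under 0.05 (9.91% of all probe sets), and none had an adjusted p under 0.05 (1.14% of all probe sets). The smallest adjusted p was 0.0717, for Dbp.

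The comparison of 12- with 8-week control mice asked how far the clock genes differed between the studies without a high fat diet, and it held the largest differences. A difference in the hour of killing cannot be told apart from the study here, and its part in these values was not tested. Dbp averaged 7.81 ± 0.72 in 12-week control mice and 10.56 ± 0.56 in 8-week control mice (SD, n = 4 each), 6.74-fold lower at 12 weeks, with a log2 fold change of −2.75 (95% interval −3.89 to −1.62). Per3 was 3.38-fold lower, Nr1d1 1.98-fold lower and Nr1d2 1.68-fold lower. Arntl averaged 10.36 ± 0.29 in 12-week and 8.25 ± 0.58 in 8-week control mice, 4.32-fold higher, and Npas2 was 4.24-fold higher (log2 fold changes 2.11, 95% interval 1.15 to 3.07, and 2.08, 1.10 to 3.06). Cry1 was 1.59-fold and Clock 1.37-fold higher. Per1 was 1.59-fold lower with an interval that just included 0 (−1.34 to 0.00).

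All 4 mice of one control group lay beyond all 4 of the other for 8 of the 9 genes, 4 higher and 4 lower at 12 weeks, against 3.68% of all probe sets. The same 8 had an unadjusted limma p under 0.05 (6.89% of all probe sets). The genes moved together from mouse to mouse, as described below. In this and every other comparison, a count of these genes is therefore not a count of separate results. None passed the adjusted threshold of 0.05 (0.00967% of all probe sets, 4 in number, did), and limma's adjusted p ran from 0.116 for Dbp to 0.726 for Per1. The call depended on the spread that the test used. With the 8 control arrays fitted alone, Arntl (adjusted p = 0.00472), Dbp (0.00672), Per3 (0.0113) and Npas2 (0.0170) passed in limma, and without replicate 3 of HFD-EPA/DHA at 8 weeks, which belongs to neither control group but enters the shared spread, Arntl, Dbp and Per3 passed (0.0146, 0.0170 and 0.0369).

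The estimates for 12 vs. 8 weeks were smaller on the high fat diets. For HFD-EPA/DHA at 12 vs. 8 weeks the log2 fold changes were 0.39 for Arntl and −0.32 for Dbp, 0 of 9 genes had an unadjusted p under 0.05 (5.49% of all probe sets), and no probe set was called (0%). For HFD-corn oil they were 1.02 for Arntl and −0.63 for Dbp, with 0 of 9 at an unadjusted p under 0.05 (3.32%) and 0% called. The 95% interval for Arntl was −0.57 to 1.35 on HFD-EPA/DHA, and it was −0.02 to 2.06 on HFD-corn oil. With single mice left out, 0 or 1 of the 9 genes had an unadjusted p under 0.05 on either diet.

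**Figure D2:**
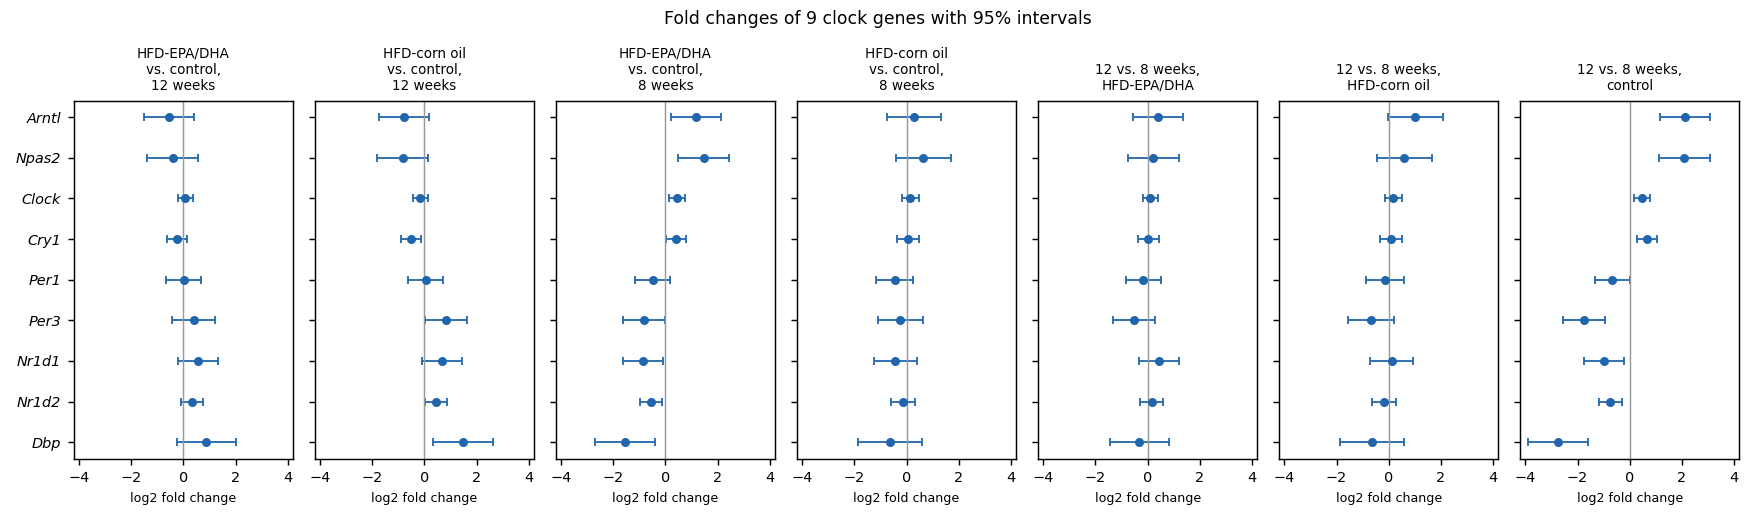
Log2 fold change (x axis) of each clock gene (rows) in 7 comparisons, the first group over the second. Points are limma estimates over 23 arrays and bars are 95% intervals. Intervals exclude 0 for 8 genes in 12- vs. 8-week control mice and for 8 genes in HFD-EPA/DHA vs. control at 8 weeks, and include 0 for all 9 in HFD-EPA/DHA vs. control at 12 weeks.

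HFD-EPA/DHA vs. control at 8 weeks asked whether the clock genes differed between these diets as a whole, which differ in more than the marine fatty acids. The 2 sides of the loop differed in opposite directions. Arntl (log2 fold change 1.16 ± 0.47, standard error), Npas2 (1.46 ± 0.47), Clock (0.43 ± 0.15) and Cry1 (0.40 ± 0.19) averaged higher on HFD-EPA/DHA, whereas Dbp (−1.55 ± 0.55), Nr1d1 (−0.87 ± 0.37), Per3 (−0.84 ± 0.39) and Nr1d2 (−0.56 ± 0.21) averaged lower. These 8 of 9 genes had an unadjusted p under 0.05 (8.05% of all probe sets). None had an adjusted p under 0.05 (0.443% of all probe sets), and the smallest limma adjusted p was 0.250, for Npas2. The groups did not overlap for 1 of the 9, Nr1d1 (4.15% of all probe sets). The control group of this comparison is the one that lay at the far end in the comparison of 12 with 8 weeks, so both comparisons share it.

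This result rested on single mice. Replicates 2 and 3 of HFD-EPA/DHA stood at opposite ends: replicate 2 had the highest Arntl, Npas2 and Cry1 and the lowest Dbp, Nr1d1 and Nr1d2 of all 23 mice, whereas replicate 3 had the lowest Arntl. Without replicate 2, the number of genes at an unadjusted p under 0.05 was 2, and without replicate 1 or replicate 2 of the control mice it was 5. Without replicate 3, Arntl and Npas2 passed the adjusted threshold (limma adjusted p = 0.0302 and 0.0432).

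HFD-corn oil vs. control at 8 weeks used the same control mice, and its log2 fold changes ran from −0.64 for Dbp to 0.64 for Npas2, with Arntl at 0.30. None of the 9 genes had an unadjusted p under 0.05 (8.23% of all probe sets) or an adjusted one (0.738%), and the groups, with 3 mice on HFD-corn oil, did not overlap for 1 of the 9, again Nr1d1 (9.13%). Between the high fat diets at 8 weeks (EPA/DHA over corn oil) the log2 fold changes ran from −0.91 for Dbp to 0.87 for Arntl, with 0 of 9 at an unadjusted p under 0.05 (6.92%) and 0 of 9 adjusted (0.0266%). Without replicate 3 of HFD-EPA/DHA 7 of the 9 had an unadjusted p under 0.05, and without replicate 4 of HFD-corn oil 3 had. For fits with a mouse left out, in any comparison, the share of all probe sets is not given. Those counts therefore show how far a result moved and cannot be set against all probe sets.

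At 12 weeks the fold changes against control had the opposite sign to those at 8 weeks for all 9 genes on HFD-corn oil and for 8 of 9, all but Clock, on the other high fat diet. On HFD-corn oil vs. control, Dbp (log2 fold change 1.48 ± 0.55, standard error), Per3 (0.84 ± 0.39) and Nr1d2 (0.44 ± 0.21) averaged higher and Cry1 (−0.52 ± 0.19) lower. These 4 of 9 genes had an unadjusted p under 0.05 (8.53% of all probe sets), and the groups did not overlap for 2 of the 9, Per3 and Nr1d2 (4.59% of all probe sets). None passed the adjusted threshold (0.179% of all probe sets), with the smallest limma adjusted p at 0.393 for Cry1. The 4 genes became 1 without control replicate 2, and 2 without control replicate 3 or without replicate 2 or 3 of HFD-corn oil.

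On HFD-EPA/DHA vs. control at 12 weeks, Dbp was at 0.88 ± 0.55 and Arntl at −0.56 ± 0.47, and 0 of 9 genes had an unadjusted p under 0.05 (8.44%) or an adjusted one (0.617%). Without replicate 2 of HFD-EPA/DHA at 8 weeks, which enters through the shared spread, 2 genes had an unadjusted p under 0.05. Between the high fat diets at 12 weeks (EPA/DHA over corn oil) the log2 fold change of Dbp was −0.60 and that of Npas2 0.42, and 0 of 9 genes had an unadjusted p under 0.05 (4.63%) or an adjusted one (0.00967%). Without replicate 4 of HFD-corn oil 1 gene had an unadjusted p under 0.05.

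The change of sign between the studies was tested as an interaction. The effect of HFD-EPA/DHA vs. control at 12 minus 8 weeks was 2.43 ± 0.78 (log2, standard error) for Dbp, 1.43 ± 0.52 for Nr1d1, −1.87 ± 0.67 for Npas2 and −1.72 ± 0.66 for Arntl. For 7 of 9 genes the unadjusted p was under 0.05 (4.95% of all probe sets), and no probe set passed the adjusted threshold (0%). For HFD-corn oil vs. control the count was 3 of 9 (3.64%) with 0% called, and it moved between 0 and 6 when single mice were left out. Between the high fat diets it was 0 of 9 (4.46%), with 0% called. Both interactions with control contain the difference between the control groups described above.

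The genes moved together from mouse to mouse. With group means removed, Arntl, Npas2, Clock and Cry1 were positively correlated with each other in all 6 pairs (r from 0.62 to 0.90), and Per1, Per3, Nr1d1, Nr1d2 and Dbp in all 10 pairs (r from 0.42 to 0.93). All 20 pairs across these sides were negatively correlated (r from −0.93 to −0.44). Cry1, a repressor, was counted beside Arntl, where its values in these same livers placed it. The signs of its pairs are therefore a description and no separate result. Of 36 pairs, 32 had an adjusted p under 0.05 by Pearson's r and 33 by Spearman's rho (permutation test within groups, two-sided, 100000 resamples, Benjamini-Hochberg over the 36 pairs, 23 mice). The 4 pairs that did not pass by Pearson's r all included Nr1d1, with Arntl, Clock, Per1 or Per3 (adjusted p from 0.0773 to 0.166). The mice shared cages and days of killing that are not given per mouse, so they may be less independent than the test takes them to be.

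Dbp and Npas2 formed the closest opposite pair (r = −0.93, rho = −0.92, permutation p = 1e-05, the smallest that the resamples can give, adjusted p = 5.14e-05). Dbp and Arntl had r = −0.91 and rho = −0.90 (same p), and Dbp and Nr1d2, both targets of the activating pair, had r = 0.93 and rho = 0.89 (same p). Cry1 and Nr1d1, a target and its repressor, had r = −0.89 and rho = −0.86 (permutation p = 0.0027, adjusted p = 0.00423). With the 2 mice farthest from the median of the first gene left out, all 36 kept their sign, and 33 had an adjusted p under 0.05. Taken within each study, all 36 had the same sign at 12 and at 8 weeks, and 20 pairs at 12 weeks (12 mice) and 21 at 8 weeks (11 mice) had an adjusted p under 0.05 in the permutation test. At 12 weeks the 20 pairs across the sides had r from −0.93 to −0.33, and at 8 weeks from −0.98 to −0.50.

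**Figure D3:**
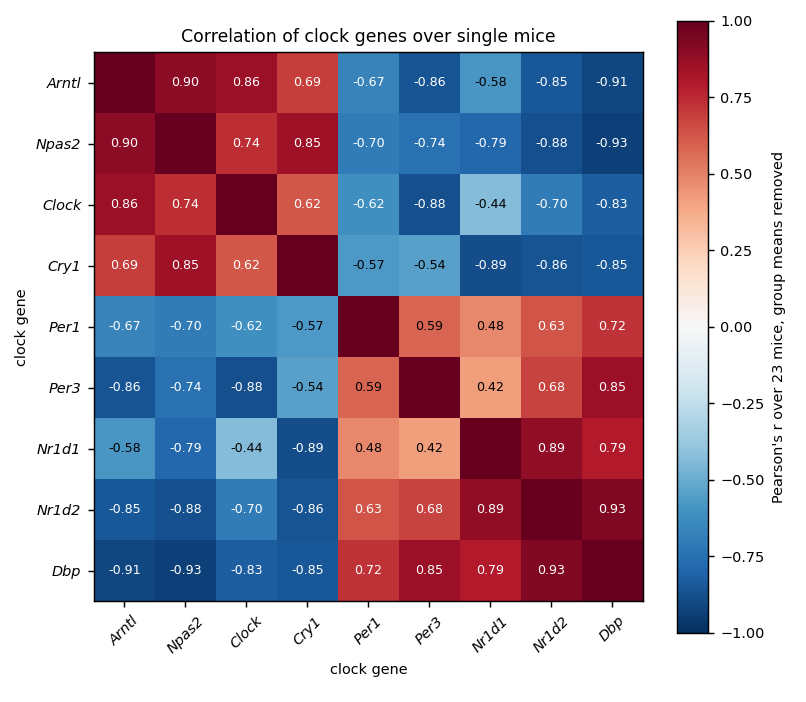
Pearson's r (colour and printed value) between the deviations of 2 clock genes from their group means over 23 mice, with the same 9 genes on both axes. The upper left block of Arntl, Npas2, Clock and Cry1 and the lower right block of the other 5 genes are positive, from 0.42 to 0.93, and the blocks between them are negative.

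The dropped array did not keep to this pattern. HFD-corn oil 8 weeks replicate 3 had the lowest Clock of all 24 arrays (9.42) and an Nr1d2 of 9.90, with Arntl at 8.78, Npas2 at 8.87, Per1 at 10.61 and Dbp at 9.68. Over all probe sets its mean correlation with the arrays of its own group was 0.941, against 0.984 to 0.989 for the other 23. With this array kept, 21 of the 36 pairs had an adjusted p under 0.05.

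The genes most like Arntl and Dbp over single mice were sought among 13772 probe sets with 1 symbol, that of no clock gene above, and a signal at or above the median, as a description over 23 mice that share diets, days and cages. Among these probe sets, most like Arntl were Cldn1 (r = 0.96), which encodes the tight junction protein claudin 1, Net1, Clpx, a subunit of a mitochondrial protease, Dtx4, Pde9a, a phosphodiesterase of cyclic GMP, and Asap2, with r down to 0.92. Most opposite to Arntl were Tef (r = −0.94), Gys2, the glycogen synthase of liver, Usp2, a deubiquitinase, Brap, Ciart, a repressor of the ARNTL and CLOCK pair, and Bnip3. Tef and Ciart are themselves on the list of other clock regulators used below, and Gys2 and Usp2 on that of clock-controlled genes. Tef, which encodes a close relative of DBP and binds the same D-box, was also the most like Dbp of these probe sets (r = 0.97), followed by Slc38a3 (0.95), a glutamine transporter, Ppara (0.95), Gys2 (0.92), Tbc1d10a (0.91) and Dgat2 (0.90), an enzyme of triglyceride synthesis. Among the same probe sets, most opposite to Dbp were Pdgfc (−0.93), a growth factor, Ddc, Chrm3, Pld1, Crem and Asap2 (−0.91).

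Ppara, the receptor through which fatty acids control oxidation genes in liver, measured 11.36, 11.18, 11.12 and 11.13 in HFD-EPA/DHA mice, 11.14, 11.58, 11.55 and 11.13 in HFD-corn oil mice and 11.42, 10.97, 11.05 and 11.06 in control mice at 12 weeks. At 8 weeks it measured 11.09, 10.49, 11.59 and 11.17 in HFD-EPA/DHA mice, 11.28, 11.88 and 11.23 in HFD-corn oil mice and 11.50, 11.47, 11.65 and 11.17 in control mice. Within HFD-EPA/DHA at 8 weeks Ppara was lowest in replicate 2 and highest in replicate 3, the mice with the lowest and the highest Dbp of that group. Its r with Dbp was 0.85 over the 12-week mice and 0.98 over the 8-week mice, and 0.92 without the 2 mice farthest from the median. Dgat2 had r with Dbp of 0.65 at 12 weeks and 0.98 at 8 weeks. Both genes were picked for a high r with Dbp over these same mice, so their r in parts of the mice is no separate test. Of the 13772 probe sets ranked, 67 had an r with Dbp of 0.8 or more and 66 had −0.8 or less.

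**Figure D4:**
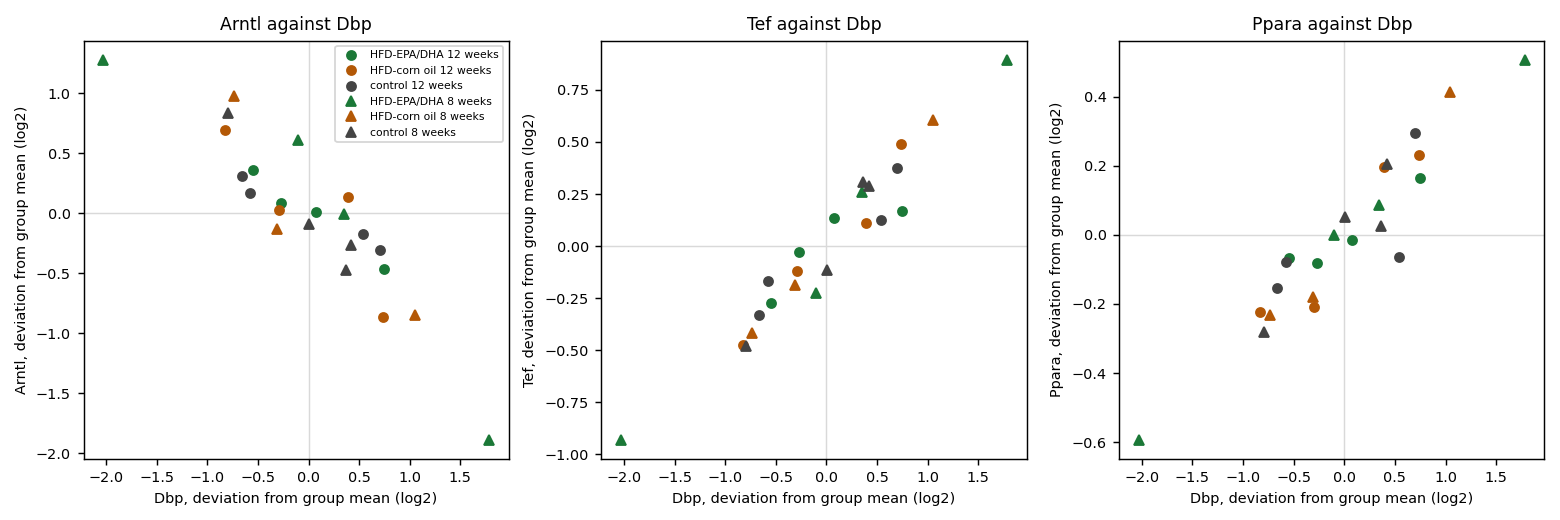
Deviation from the group mean (log2) of Arntl, Tef and Ppara (y axes, left to right) against that of Dbp (x axis) in 23 mice. Circles are 12-week and triangles 8-week mice, with HFD-EPA/DHA in green, HFD-corn oil in orange and control in grey. The outermost points are replicates 2 and 3 of HFD-EPA/DHA at 8 weeks, with Dbp deviations of −2.03 and 1.79.

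Other regulators of the clock and clock-controlled genes of liver were read from lists. Of 12 measured regulators, 1 was higher and 5 were lower in 12- than in 8-week control mice at an unadjusted p under 0.05 (6.89% of all probe sets). Their median log2 fold change was −0.28 (0.00 over all probe sets), and 0 had an adjusted p under 0.05. Bhlhe41, a repressor of the ARNTL and CLOCK pair named here after its value was seen, had the smallest adjusted p (0.0564), with a log2 fold change of −1.99 ± 0.36. The higher one was Nfil3 (1.03 ± 0.22), a repressor at D-boxes, and Tef (−1.35 ± 0.29) and Ciart (−1.98 ± 0.66) were among the lower ones. Of 11 measured clock-controlled genes, 2 were higher and 7 lower at an unadjusted p under 0.05, with a median log2 fold change of −0.54. Cdkn1a, which encodes the cell cycle inhibitor p21, rose (log2 fold change 2.06 ± 0.33, limma adjusted p = 0.0452), and Usp2 had −2.17 ± 0.55 (adjusted p = 0.257). The adjusted p of Cdkn1a ranged from 0.00113 to 0.250 over its alternatives, and it missed the threshold without any single 12-week mouse, without replicate 1, 2 or 3 of control at 8 weeks, and without replicate 1 of either high fat diet at 8 weeks. It also missed it with all 24 arrays (0.0542) and with trend and robust eBayes settings (0.108).

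In the comparisons of diets, 2 clock-controlled genes rose on HFD-EPA/DHA vs. control at 12 weeks. These were Cyp2a5, a cytochrome P450 (log2 fold change 1.41 ± 0.27, limma adjusted p = 0.00880), and Nr1i3, the xenobiotic receptor CAR (1.09 ± 0.23, adjusted p = 0.0231). Cyp2a5 missed the threshold without control replicate 2 (adjusted p = 0.0575, the largest over its alternatives) or HFD-EPA/DHA replicate 1, and Nr1i3 without control replicate 2, 3 or 4 or HFD-EPA/DHA replicate 1, 2 or 4 (adjusted p up to 0.1001). The call of Nr1i3 also ended with all 24 arrays (0.0526) and with trend and robust eBayes settings (0.0674). On HFD-corn oil at 12 weeks Cyp2a5 averaged 9.66 and Nr1i3 10.72, against 8.43 and 10.02 in control mice. Neither passed the adjusted threshold there (smallest limma adjusted p of the list 0.0707), nor between the high fat diets at 12 weeks. The rises are thus not shown to be particular to HFD-EPA/DHA. On the list of 11 measured genes of fasting, feeding and glucocorticoids, Fgf21, a hormone of liver that responds to diet, fell on HFD-EPA/DHA vs. control by 1.19 at 12 weeks (log2, adjusted p = 0.00118) and by 1.18 at 8 weeks (adjusted p = 0.00171), and on HFD-corn oil vs. control by 0.89 at 8 weeks (adjusted p = 0.0377). The last of these missed the threshold without control replicate 1, 3 or 4 or any of the 3 HFD-corn oil mice (adjusted p up to 0.170), whereas both calls on HFD-EPA/DHA passed in all 35 alternatives run. On HFD-corn oil at 12 weeks Fgf21 averaged 7.15, against 7.99 in control mice. It did not pass the adjusted threshold there (smallest limma adjusted p of the list 0.0724). In 12- vs. 8-week control mice, 2 genes of that list, Pdk4 (1.13 ± 0.24) and Igfbp1 (1.02 ± 0.33), which were named after their values were seen, were higher at an unadjusted p under 0.05, and the control groups did not overlap in either. Their part in the differences of the clock genes was not tested. None of 7 measured genes that respond to temperature had an unadjusted p under 0.05 in the comparison of the control groups.

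Markers of liver cell types were set beside the comparison of the control groups. Alb, the albumin gene that defines hepatocytes, averaged 13.4 over the 23 arrays, near the highest value of the table (13.9). The mean over 6 hepatocyte markers was 12.66 to 12.68 in 12-week and 12.60 to 12.72 in 8-week control mice. Over 5 Kupffer cell markers it was 9.80 to 10.38 in 12-week and 9.46 to 10.21 in 8-week control mice, and 3 of the 5 (Vsig4, Adgre1 and Timd4) were higher at 12 weeks at an unadjusted p under 0.05. One of 5 endothelial markers and 1 of 4 lymphocyte markers were higher, 1 of 5 stellate cell markers was lower, and 0 of 4 cholangiocyte markers differed at that threshold. Of all probe sets, 6.89% had an unadjusted p under 0.05 in this comparison. No marker had an adjusted p under 0.05, and the smallest limma adjusted p of each list ran from 0.564 to 0.849. The part of these cell types in the clock gene values was not tested, and in whole liver fewer cells of a type and less RNA per cell cannot be told apart.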

How the data were processed

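Signals of 41345 probe sets were deposited for 24 arrays. The authors made these log2 values in Affymetrix Expression Console by iter-PLIER on perfect match probes, after normalizing quantiles between arrays. No scale is stated in the table, and values of 4.39 to 13.9 were read as log2. Genes were named from GEO's platform annotation. All 6 groups entered a single fit in limma 3.58.1 (R 4.3.3), without filter or offset, with 12 comparisons and a moderated F test. P-values are two-sided, with Benjamini-Hochberg adjustment across the whole array. The number of arrays limits the precision, and arrays have no sequencing depth.

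Correlations used deviations from group means, permuted within groups (Python 3.11.15). They were adjusted over 36 pairs and not the 45 of the plan, since Per2 had no probe set of its own. Replicate numbers were not used as pairs: over 55 same-numbered pairs of arrays, deviations correlated at −0.31 to 0.26. Members and gene lists were chosen with earlier results of these data known. Named genes are all members, list genes with an adjusted p under 0.05, up to 6 per list and comparison, and the 6 other genes per side closest to Arntl and to Dbp. Outside this rule, Bhlhe41, Nfil3, Pdk4, Igfbp1, Vsig4, Adgre1 and Timd4 were named without an adjusted p under 0.05 between the control groups. Alb was named for its level. Scripts were tested on simulated data. Promoter windows are from RefSeq. Alternatives were all 24 arrays with and without weights, an offset of 16, filters, renormalization, other eBayes settings, a replicate block, separate fits and each array left out in turn. The count at an unadjusted p under 0.05 was added after the values had been seen.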

Additional observations from a re-analysis of the deposited data

Results flagged for a closer look

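In 45 combinations of gene and group with 4 mice, 4 held a mouse far from the other 3, by the gap to its neighbour divided by the range of the group (beyond Dixon's critical value), and about 1 in 20 is flagged by chance. Nr1d1 was 9.36 in replicate 2 of HFD-EPA/DHA at 8 weeks, against 11.56 to 11.65 in the other mice of that group. Npas2 was 8.57 in replicate 1 of HFD-EPA/DHA at 12 weeks, against 9.19 to 9.22. Cry1 was 7.88 in replicate 4 of HFD-corn oil at 12 weeks, against 7.39 to 7.47. Nr1d2 was 10.58 in replicate 4 of control at 8 weeks, against 10.96 to 11.01. The cause was not tested in any of them.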

How the results depend on the processing

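The fold changes of members with an unadjusted p under 0.05 (30 results, 1022 alternative values) kept their sign in all settings run, 11 of them passed the adjusted threshold that the main fit missed, and 0 reversed. The 6 calls of list genes kept their sign in all 209 alternative values and missed the threshold in 38. The number of members with an adjusted p under 0.05 in 12- vs. 8-week control mice, 0 in the main fit, was 1 with all 24 arrays and array weights (Dbp, adjusted p = 0.0453), 4 with a separate fit per comparison, and 0 to 3 with each array left out. In HFD-EPA/DHA vs. control at 8 weeks it was 0 to 2 with each array left out. For any difference among the 6 groups it was 4 with all 24 arrays and array weights, 1 with only probe sets of 1 gene symbol, and 0 to 4 with each array left out. With the replicate number as a block this last count was 1, and it stayed at 0 in each of the 12 comparisons. Of the list genes, the block ended only the call of Fgf21 on HFD-corn oil vs. control at 8 weeks (adjusted p = 0.0513), as did renormalization by quantiles (0.0562). Trend and robust eBayes settings ended that call too (0.0510), with those of Nr1i3 (0.0674) and Cdkn1a (0.108), and all 24 arrays ended the calls of Nr1i3 (0.0526) and Cdkn1a (0.0542). The 10 other comparisons had 0 in every setting run. Of the 36 pairs, 21 passed with all 24 arrays, 20 in 12-week and 21 in 8-week mice alone, and 31 to 33 with each array left out. The cause was not tested, except that either week alone has fewer mice. Averaging the probe sets of each gene changed nothing, since each member has 1. No depth applies to arrays, and groups of 3 or 4 mice limit what the comparisons could find.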
